A study of Mus with 2 samples.

Results

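Neutrophil-rich spots were examined in 2 sections of CT26 tumors, of which 1 came from a mouse treated with recombinant IL-7 (rIL7) and 1 from its control. In each section, spots with more than 200 detected genes were ranked by the summed level of S100a8, S100a9, Csf3r, Retnlg and Cxcr2, and the top 5% were taken. This gave 111 of 2219 spots in the control section and 98 of 1950 spots in the rIL7 section, 209 of 4169 in all. Levels are in counts per 1000000 (CPM), the unique molecular identifiers (UMIs, 1 for each captured RNA molecule) of a gene for every 1000000 UMIs of the same spots. CT26 is a mouse colon carcinoma cell line that grows in BALB/c mice. Both mice were BALB/c, aged 6 to 8 weeks by the labels and female by the methods of the study, and had been transplanted with CT26 cells under the skin. The rIL7 mouse was injected with 10 µg of rIL7 into the peritoneum on days 11 and 13, the control mouse was given PBS, and both tumors were taken on day 15 and cut at 10 µm.

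With 1 section per group there was no replicate check and no test was run. Ratios between groups of spots are given with 95% exact binomial intervals, which cover counting error only and leave out the variation between mice, between sections and between places in a section. Each spot may cover more than a single cell and more than a single cell type, so that more neutrophils and more RNA per neutrophil cannot be told apart. The same slide layout serves both sections, and 1702 spot barcodes occurred in both as a matter of that layout.

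Neutrophils are short-lived phagocytes that leave the blood under the guidance of chemokines. S100a8 and S100a9 encode the subunits of calprotectin, an abundant cytosolic protein of neutrophils that is also made by some monocytes and by stressed keratinocytes. Csf3r encodes the receptor for G-CSF, Cxcr2 the receptor for the chemokines that attract neutrophils, and Retnlg a secreted protein of mouse neutrophils. In tumors, neutrophils often gather at poorly perfused or dying tissue, where they meet hypoxia and release IL-1β, reactive oxygen species and proteases.

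The values of the 5 rule genes are given as a description only, since these genes chose the spots. In the control section S100a8 (chromosome 3, 90669071 to 90670034 of GRCm38) stood at 308.6 CPM in the neutrophil-rich spots and 21.7 CPM in the other spots, and S100a9 (chromosome 3, 90692630 to 90695721) at 1030 and 54.3 CPM. The rIL7 section had S100a8 at 334.3 and 46.1 CPM and S100a9 at 933 and 122.4 CPM. The receptors were much sparser, with 64 and 85 Csf3r UMIs and 6 and 16 Cxcr2 UMIs over all neutrophil-rich spots of the control and rIL7 sections. Retnlg was found as 10 UMIs in the control and 2 UMIs in the rIL7 neutrophil-rich spots. S100a8 and S100a9 therefore carried the choice. Ranking by these 2 genes alone picked 91.9% of the same control spots and 92.9% of the same rIL7 spots, whereas ranking by Csf3r, Retnlg and Cxcr2 alone picked 36.0% and 24.5%.

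The cut fell in a continuous range. The lowest neutrophil-rich control spot had 515.7 CPM of the 5 genes and the highest other spot 515.6 CPM, and the corresponding rIL7 values were 784.3 and 782.4 CPM. A neutrophil-rich spot had a median of 1193 CPM (highest 7924) in the control section and 1122 CPM (highest 4695) in the rIL7 section. The median other spot had 61.3 CPM in the control section and 136.5 CPM in the rIL7 section. Few molecules stood behind each call, with a median of 7 UMIs of the 5 genes per control spot (range 1 to 36) and 16 per rIL7 spot (range 1 to 49). In 10 control and 2 rIL7 neutrophil-rich spots the call rested on 3 UMIs or fewer.

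Depth moved with the choice in the control section. Neutrophil-rich control spots had a median of 6058 UMIs against 9756 in the other spots, and 34.2% of them lay under 5000 UMIs against 4.32% of the other spots. In the rIL7 section the medians were 13628 and 12904 UMIs. The neutrophil-rich spots held 748601 UMIs in the control tumor and 1304377 UMIs in the rIL7 tumor, against 22203077 and 24424856 in the other spots. Mitochondrial transcripts made up 0.144% to 0.256% of UMIs in all 4 groups of spots. With neutrophil-rich and other control spots held to 2338 to 11983 UMIs, the mature neutrophil list introduced below stood at 1.94 on the log2 scale, against 1.76 over all spots. Depth could still differ within that range, and the range was set after seeing the data. Thinning spots to 5000 UMIs before ranking kept 55.9% of the control neutrophil-rich spots and lowered the value of the list, as given below. The part of depth in these values was not tested.

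**Figure D1:**
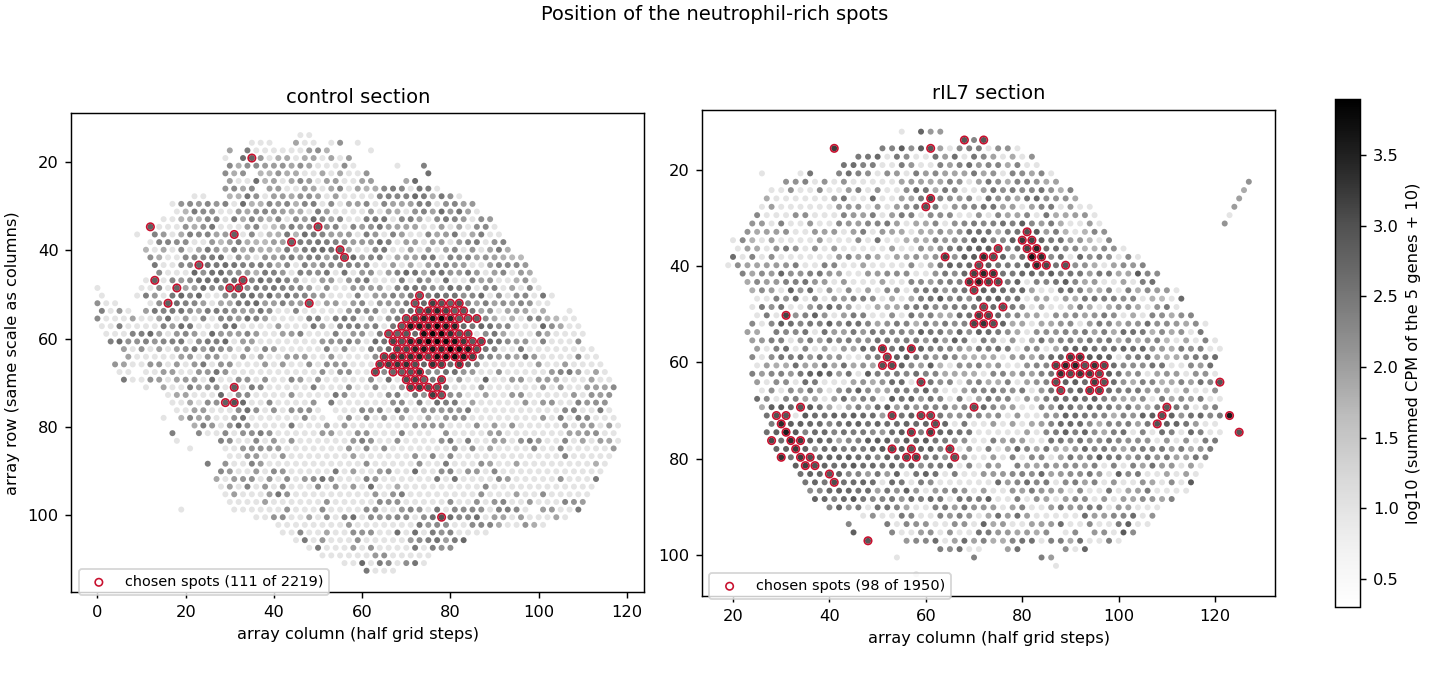
Positions of the spots on each section, in columns and rows of the spot array, shaded by the log10 of the summed CPM of the 5 rule genes plus 10, with the neutrophil-rich (chosen) spots circled in red. The control section shows 16 patches, the largest of 92 spots deep in the tissue, and the rIL7 section shows 33 scattered patches, the largest of 19 spots.

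The neutrophil-rich spots lay together in the control tumor and were scattered in the rIL7 tumor, as the maps show. In the control section the 111 spots fell into 16 patches of touching spots, and 12 of the spots stood alone. The largest patch held 92 spots (82.9%) and lay 9 to 22 steps from the outline of the section. In the rIL7 section the 98 spots fell into 33 patches, of which the largest had 19 spots (19.4%), 7 patches of at least 4 spots held 65, and 21 spots stood alone. Of the direct neighbours of a neutrophil-rich spot, 65.4% were themselves neutrophil-rich in the control tumor and 38.3% in the rIL7 tumor, against 1.89% and 3.18% of the neighbours of other spots. Neutrophil-rich spots within 2 steps of the outline numbered 3 of 111 (2.70%, 0.561 to 7.70) in the control section, where 18.2% of all spots lay there. In the rIL7 section they numbered 12 of 95 (12.6%, 6.70 to 21.0) in the main piece of tissue, where 17.1% of spots lay there. The other 3 rIL7 spots sat on small separate pieces. The intervals of these shares treat spots as independent, which touching spots are not, so they can be too narrow. In the control section 92 of the 111 spots belonged to 1 patch away from the outline, which largely sets that share.

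Neutrophil genes that the rule did not use were mostly higher in the neutrophil-rich spots of both tumors. Their lists were chosen with earlier results of these data known. A list of 22 genes of mature neutrophils summed to 1294 CPM in neutrophil-rich and 381.5 CPM in other control spots, a ratio of 3.39 (3.17 to 3.63). In the rIL7 section it summed to 1261 and 474.6 CPM, a ratio of 2.66 (2.52 to 2.80). The control value rested on the large patch, and the 19 control spots outside it stood at 1.40 (1.14 to 1.70). Ifitm1 made up 28.7% of the sum over the control section, and Mmp9 26.0% over the rIL7 section. Of the members with at least 20 UMIs, 18 of 20 were higher in the control section and 20 of 21 in the rIL7 section. Their median log2 ratio was 2.26 and 2.08, where the median of all genes with at least 20 UMIs was -0.06 over 13175 genes in the control and -0.12 over 13354 genes in the rIL7 section. Most members are too sparse for the size rule used for all genes, which asks for at least 20 CPM over the section and a change of at least 2-fold. Of those that reached 20 CPM, 1 of 4 was at least 2-fold higher in the control section and 3 of 6 in the rIL7 section, where 1.21% and 0.959% of all genes of that level were. On the log2 scale the control ratio of the list was 1.76 as given and 0.99 after every spot was thinned to 5000 UMIs before ranking, and the rIL7 ratio was 1.41 as given and 0.69 when Csf3r, Retnlg and Cxcr2 alone chose the spots.

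The members Hcar2, G0s2 and Hdc had large ratios in both sections. They were picked from members with at least 20 UMIs in the neutrophil-rich spots, a filter that favours genes high there. Their values are therefore given as a description only. Hcar2, the receptor for niacin and β-hydroxybutyrate, stood at 264.5 CPM in neutrophil-rich and 4.77 CPM in other control spots (ratio 55.4, 43.5 to 70.8), and at 126.5 and 10.6 CPM in the rIL7 section (ratio 11.9, 9.72 to 14.5). G0s2, an inhibitor of fat breakdown, had ratios of 39.6 (24.0 to 65.8) and 7.86 (5.89 to 10.4). Hdc, the enzyme that makes histamine, had ratios of 17 (13.0 to 22.1) and 6.12 (4.73 to 7.86). In all 3 genes the other rIL7 spots held more than the other control spots, and the ratio was smaller there.

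Other surface and effector genes of the list followed. Acod1, which makes itaconate, had ratios of 11.0 (7.56 to 15.7) in the control tumor and 4.36 (3.28 to 5.73) in the rIL7 tumor. The C-type lectin receptor Clec4d stood at 5.49 (4.0 to 7.40) and 4.04 (3.34 to 4.85), and Il1r2, the decoy receptor for IL-1, at 4.16 (3.04 to 5.58) and 3.22 (2.33 to 4.36). Slfn4, a schlafen gene of myeloid cells, had the higher ratio in the rIL7 section, at 5.14 (4.44 to 5.92) against 2.73 (2.17 to 3.39). Mmp9, a gelatinase stored in neutrophil granules and also made by macrophages, did not share the direction, with ratios of 0.557 (0.339 to 0.865) and 0.95 (0.808 to 1.11). Ly6g, which defines mouse neutrophils at the protein level, had 0 UMIs in both sections, in the neutrophil-rich and in the other spots alike.

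Genes of granule formation, which neutrophil precursors transcribe in bone marrow, were nearly absent. The 14 genes summed to 28 UMIs in the control and 93 UMIs in the rIL7 neutrophil-rich spots, with ratios of 2.99 (1.95 to 4.41) and 2.57 (2.05 to 3.20) and median log2 ratios of 0.34 and 1.11 over the 6 genes with at least 20 UMIs. Lcn2, which encodes the iron-siderophore-binding lipocalin of secondary granules and is also induced in inflamed epithelium, carried most of this, at 24.0 against 1.62 CPM in the control and 46.8 against 11.2 CPM in the rIL7 section. Elane, Camp and Ngp had 0 UMIs in the neutrophil-rich spots of both sections, and Mpo had 0 and 1.

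The chemokines that bind CXCR2 were higher in the same spots. Cxcl1, Cxcl2, Cxcl3, Cxcl5 and Ppbp lie in 1 cluster on chromosome 5 (90759298 to 90905938, from the start of Cxcl5 to the end of Cxcl2). Together they stood at 724 CPM in neutrophil-rich and 90.4 CPM in other control spots, a ratio of 8.01 (7.27 to 8.81), and at 854.8 and 294.2 CPM in the rIL7 tumor, a ratio of 2.91 (2.73 to 3.10). The rIL7 ratio of the list went from 1.54 to 0.081 on the log2 scale when Csf3r, Retnlg and Cxcr2 alone chose the spots, and in the 19 control spots outside the largest patch the ratio was 1.41 (0.908 to 2.08). All 5 were above 1 in both sections, although the intervals of Ppbp, with 4 and 7 UMIs, included 1. The median log2 ratio was 3.92 and 1.85.

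Cxcl2 and Cxcl3, which myeloid cells make in quantity, had the largest ratios of the 5. Cxcl2 stood at 112.2 and 1.94 CPM in the control section (ratio 57.9, 39.7 to 85.7) and at 147.2 and 10.7 CPM in the rIL7 section (ratio 13.8, 11.4 to 16.7), and 69 of the 111 control and 46 of the 98 rIL7 spots still had none. Cxcl3 had ratios of 59.3 (24.0 to 160.1, on 16 UMIs) and 16.3 (11.1 to 23.9). Cxcl1 had ratios of 15.1 (11.9 to 19.0) and 3.60 (3.02 to 4.26). Cxcl5, which epithelial and stromal cells make in many tissues, was spread more widely. Per neutrophil-rich spot it ran from 0 to 3226 CPM around a median of 422.4 in the control section and from 0 to 2353 around 390.2 in the rIL7 section, against a median of 0 and 163.2 CPM in the other spots. Its ratios were 5.74 (5.08 to 6.47) and 2.21 (2.04 to 2.39), the latter at -0.14 on the log2 scale when Csf3r, Retnlg and Cxcr2 alone chose the spots. The ranges of neutrophil-rich and other spots overlapped for each of these genes.

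Cytokines that act on neutrophils or that they make were also higher. Over 9 genes the ratio was 3.82 (3.45 to 4.22) in the control tumor and 3.12 (2.90 to 3.35) in the rIL7 tumor, with 5 of 6 and 6 of 7 members of at least 20 UMIs above 1 and medians of 2.39 and 1.51 on the log2 scale. Il1b, the inflammatory cytokine IL-1β, carried 77.0% of the sum over the control section. It ran from 0 to 3494 CPM around a median of 347.8 in control and from 0 to 1263 around 386.9 in rIL7 neutrophil-rich spots, against medians of 99.9 and 127 CPM in the other spots. Csf3, which encodes the growth factor G-CSF, had ratios of 12.9 (6.15 to 25.4) and 8.49 (5.27 to 13.4) on 13 and 29 UMIs. The chemokine Ccl3 stood at 9.21 (6.44 to 12.9) and 5.2 (4.13 to 6.51), and Ccl4 at 5.03 (3.74 to 6.66) and 2.86 (2.33 to 3.48). Tnf did not share the direction (0.702, 0.189 to 1.83, and 0.734, 0.313 to 1.48), on 4 and 8 UMIs.

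Machinery that neutrophils share with other myeloid cells differed little. Among all genes of at least 20 CPM in both sections, 44.3% (control) and 34.8% (rIL7) were above 1. Those shares are only a rough guide to the counts of members above 1, in the lists before and after. The member counts take genes of at least 20 UMIs, which is a lower level. Over all genes of that lower level the median log2 ratio was -0.06 (control) and -0.12 (rIL7), so that most lay below 1. Surface receptors other than those of the rule had summed ratios of 1.18 (1.08 to 1.29) and 1.15 (1.08 to 1.23), with 9 of 13 and 8 of 13 members higher and medians of 0.26 and 0.50 on the log2 scale. Cxcr4, which holds neutrophils in bone marrow and increases on aged cells, stood at 4.09 (2.73 to 5.94) and 3.06 (2.20 to 4.17). The subunits of NADPH oxidase, the enzyme of the oxidative burst, had ratios of 0.907 (0.824 to 0.997) and 1.05 (0.977 to 1.12), with 1 of 6 and 3 of 6 higher. The enzymes of leukotriene synthesis had ratios of 1.06 (0.917 to 1.22) and 1.34 (1.21 to 1.48), with 3 of 5 higher in each section. The other S100 genes, which lie outside the calprotectin pair, stood at 0.968 (0.953 to 0.984) and 0.919 (0.907 to 0.932). S100a6 made up 79.4% and 76.1% of their sum, and 3 of 11 and 4 of 11 members were higher.

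**Figure D2:**
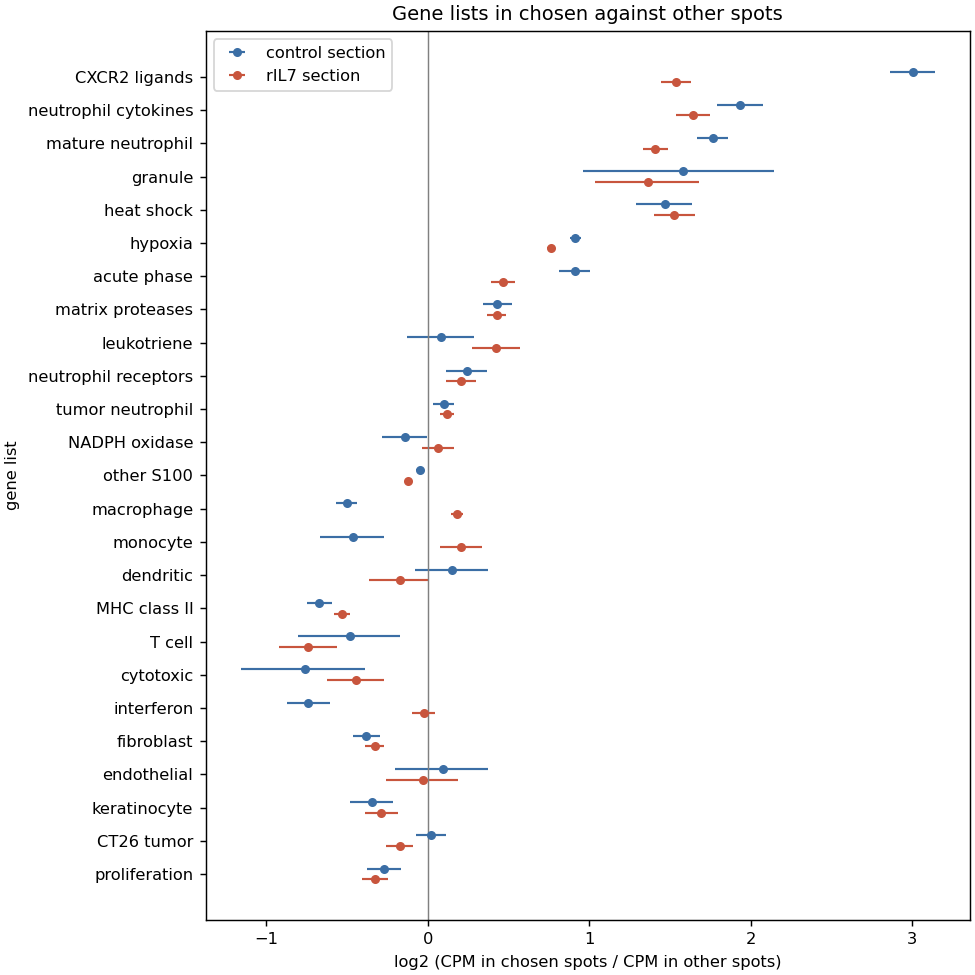
Log2 ratio of the summed CPM of each gene list in neutrophil-rich (chosen) over other spots (horizontal axis), with blue points for the control and red points for the rIL7 section and bars for the 95% binomial interval, which covers counting error only. CXCR2 ligands stand farthest to the right in the control section, at 3.0, and neutrophil cytokines in the rIL7 section, at 1.64, where CXCR2 ligands are at 1.54. The antigen-presentation list lies left of 0 in both sections.

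Genes induced by low oxygen were higher in both tumors, as the plot of the lists shows. The hypoxia list summed to 9654 CPM in neutrophil-rich and 5127 CPM in other control spots (ratio 1.88, 1.84 to 1.93), and to 9192 and 5413 CPM in the rIL7 section (ratio 1.70, 1.67 to 1.73). All 16 members with at least 20 UMIs were higher in each section, with medians of 1.24 and 0.93 on the log2 scale. Of 13 members that reached 20 CPM, 7 were at least 2-fold higher in the control tumor and 4 in the rIL7 tumor, beside 1.21% and 0.959% of all genes of that level. Ndrg1, a stress gene strongly induced by hypoxia, ran from 0 to 2566 CPM around a median of 772.1 in control and from 0 to 2406 around 634.2 in rIL7 neutrophil-rich spots, against 101.6 and 130.9 CPM in the median other spot. Its ratios were 5.49 (5.01 to 6.01) and 3.37 (3.15 to 3.61). The glucose transporter Slc2a1 stood at 3.70 (3.33 to 4.10) and 2.74 (2.51 to 2.99), and Bnip3, which acts in the removal of mitochondria, at 3.11 (2.80 to 3.45) and 2.24 (2.06 to 2.43). In rIL7 spots chosen by Csf3r, Retnlg and Cxcr2 alone the hypoxia list was slightly lower than in the other spots, at -0.059 on the log2 scale. The control rise rested on the largest patch, and the 19 control spots outside it had a hypoxia ratio of 0.995 (0.934 to 1.06).

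Metallothioneins and heat-shock genes went with them. Mt1, which binds zinc and copper, ran from 0 to 15472 CPM around a median of 3377 in control and from 801.4 to 19122 around 4231 in rIL7 neutrophil-rich spots, against 675.8 and 1142 CPM in the median other spot. Its ratios were 4.76 (4.57 to 4.95) and 3.15 (3.07 to 3.23), and those of Mt2 were 3.91 (3.65 to 4.20) and 2.24 (2.14 to 2.34). The 5 heat-shock genes had summed ratios of 2.76 (2.44 to 3.11) and 2.88 (2.64 to 3.14), with 5 of 5 higher in each section. Hspa1a and Hspa1b, near-identical copies of the inducible HSP70 whose reads may be divided between them uncertainly, stood at 20.1 and 11.3 in the control and 9.41 and 6.15 in the rIL7 section. In the 19 control spots outside the largest patch, Mt1 had a ratio of 0.899 (0.76 to 1.06) and the heat-shock list 0.785 (0.491 to 1.19).

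A list of genes attributed to tumor neutrophils gave summed ratios of 1.07 (1.03 to 1.12) and 1.09 (1.06 to 1.12), and Spp1, a secreted phosphoprotein at 0.910 and 0.848, made up 89.5% and 86.5% of the sum over the section. Its members of at least 20 UMIs had medians of 1.16 and 0.95 on the log2 scale, with 7 of 10 and 9 of 11 higher. Ptgs2, the inducible enzyme of prostaglandin synthesis, stood at 3.28 (2.63 to 4.04) and 4.09 (3.63 to 4.60). Hilpda, a lipid-droplet protein, stood at 3.44 (2.85 to 4.12) and 3.15 (2.76 to 3.58), and Vegfa, the angiogenic growth factor, at 2.40 (2.00 to 2.85) and 1.85 (1.59 to 2.14). Cd274, which encodes PD-L1, had ratios of 2.24 (1.35 to 3.53) and 1.93 (1.47 to 2.5) on 20 and 64 UMIs. Acute-phase genes had ratios of 1.88 (1.76 to 2.01) and 1.38 (1.31 to 1.46), and matrix proteases and their regulators 1.35 (1.27 to 1.43) and 1.35 (1.29 to 1.40). Within the latter, Mmp12, the macrophage elastase, stood at 4.02 (3.26 to 4.92) and 3.20 (2.92 to 3.51). In rIL7 spots chosen by Csf3r, Retnlg and Cxcr2 alone, the tumor neutrophil list, the protease list and Mmp12 were below the other spots, at -0.20, -0.14 and -0.17 on the log2 scale.

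Genes of antigen presentation and lymphocytes were lower. None of the 10 MHC class II genes was above 1 in either section, and the list had ratios of 0.628 (0.595 to 0.663) and 0.693 (0.668 to 0.718) with medians of -0.73 and -0.63 on the log2 scale. No neutrophil-rich spot was among the top 5% of its section by MHC class II (0 of 111 and 0 of 98). The upper interval limits of 3.27% and 3.69% treat spots as independent, which touching spots are not. T cell genes had ratios of 0.718 (0.573 to 0.888) and 0.599 (0.528 to 0.677), with 1 and 2 of 13 members higher. Cytotoxic genes had ratios of 0.591 (0.449 to 0.764) and 0.735 (0.650 to 0.828), and proliferation genes 0.830 (0.771 to 0.892) and 0.799 (0.755 to 0.844), with 0 of 10 higher in each section. Fibroblast genes stood at 0.768 (0.725 to 0.814) and 0.797 (0.765 to 0.830). The 2 markers of CT26 cells, Rpl39l and Baiap2l1, stood at 1.02 (0.952 to 1.08) and 0.887 (0.836 to 0.939). In rIL7 spots chosen by Csf3r, Retnlg and Cxcr2 alone the MHC class II, T cell and cytotoxic lists were higher than in the other spots, at 0.73, 0.50 and 0.46 on the log2 scale. In the 19 control spots outside the largest patch, MHC class II genes had a ratio of 1.34 (1.24 to 1.43) and fibroblast genes 1.16 (1.06 to 1.27). T cell genes stood at 0.660 (0.408 to 1.01) there, cytotoxic genes at 0.953 (0.616 to 1.41) and proliferation genes at 0.908 (0.791 to 1.04).

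Macrophage, monocyte and interferon genes did not follow the same order in the sections. The macrophage list was at 0.707 (0.675 to 0.739) in the control tumor and 1.13 (1.1 to 1.16) in the rIL7 tumor, and the monocyte list at 0.725 (0.630 to 0.831) and 1.15 (1.05 to 1.26). The interferon-response list was at 0.60 (0.547 to 0.657) with 0 of 12 members higher in the control, and at 0.984 (0.936 to 1.03) with 8 of 12 higher in the rIL7 section. Isg15, a ubiquitin-like interferon-response protein, had ratios of 0.599 (0.470 to 0.753) and 1.61 (1.40 to 1.84). The macrophage and monocyte ratios above 1 in the rIL7 section rested on 1 patch of spots, described further on, and no difference between the sections was tested.

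Keratinocytes are another source of S100a8 and S100a9. The keratinocyte list stood at 0.786 (0.716 to 0.862) in the control tumor and 0.820 (0.764 to 0.879) in the rIL7 tumor, and Lgals7 made up 90.2% and 94.3% of it. It was higher, at 0.50 on the log2 scale, in control spots chosen by Csf3r, Retnlg and Cxcr2 alone. Krt5 and Krt14, which define basal keratinocytes, had 1 UMI each in the control and 0 in the rIL7 neutrophil-rich spots. Dendritic cell genes had ratios of 1.11 (0.947 to 1.30) and 0.887 (0.779 to 1.01), with Fscn1 making up 84.2% and 77.5% of the sum over the section. Of their members with at least 20 UMIs, 5 of 5 were above 1 in the control tumor and 0 of 9 in the rIL7 tumor, with medians of 0.20 and -0.71 on the log2 scale. Endothelial genes stood at 1.07 (0.871 to 1.29) and 0.981 (0.838 to 1.14), and other granulocytes, namely mast cells, basophils and eosinophils, 0.568 (0.345 to 0.881) and 0.529 (0.337 to 0.792) on 20 and 24 UMIs. The granulocyte list was above the other spots, at 0.70 on the log2 scale, in the 19 control spots outside the largest patch, and at 0.75 in rIL7 spots chosen by Csf3r, Retnlg and Cxcr2 alone. B and plasma cell genes stood at 2.39 (2.17 to 2.62) in the rIL7 section, but 332 of the 436 Igkc UMIs came from a single spot, and without it the list was at 0.648 (0.541 to 0.771). The other rIL7 spots kept their own extremes, up to 29690 CPM of the list, so that no direction is read from this value. Immunoglobulin genes form a multigene family whose reads can be shared between members.

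Over all genes of at least 20 CPM in a section, 92 of 7577 reached a ratio of 2 or more in the control neutrophil-rich spots and 94 (1.24%) were lower by 2-fold or more. Of 7616 genes of that level in the rIL7 tumor, 73 were higher and 38 (0.499%) lower, or 86 higher and 25 lower when the 4 pooled profiles were scaled by TMM or by median of ratios. Counting error alone left an interval wholly above 2-fold for 41 of the 92 and 41 of the 73 higher genes, and wholly below for 0 of the 94 and 1 of the 38 lower genes, so that the lower genes are known with little precision. Between the sections, 39 higher genes were shared, 42.4% of the control and 53.4% of the rIL7 genes. Of the 92 control genes 89 were above 1 in the rIL7 section, and of the 73 rIL7 genes 70 were above 1 in the control section. Of the lower genes, 21 of the 94 control genes (22.3%) and 6 of the 38 rIL7 genes (15.8%) were above 1 in the other section. Beside these, 34.8% of all genes of that level in both sections were above 1 in the rIL7 and 44.3% in the control section. The lists of lower genes shared 2 genes, 2.13% and 5.26%, where 0.499% and 1.24% of all genes were lower by 2-fold in the rIL7 and control sections. They were Slc37a3 (0.471 and 0.498), a sugar-phosphate transporter family member, and Prim1 (0.499 and 0.414), a primase subunit that starts DNA synthesis. Across the 7339 genes of that level in both sections the log2 ratios had a Pearson correlation of 0.452 and a Spearman correlation of 0.369, which describes genes within a pair of sections and not replicates.

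**Figure D3:**
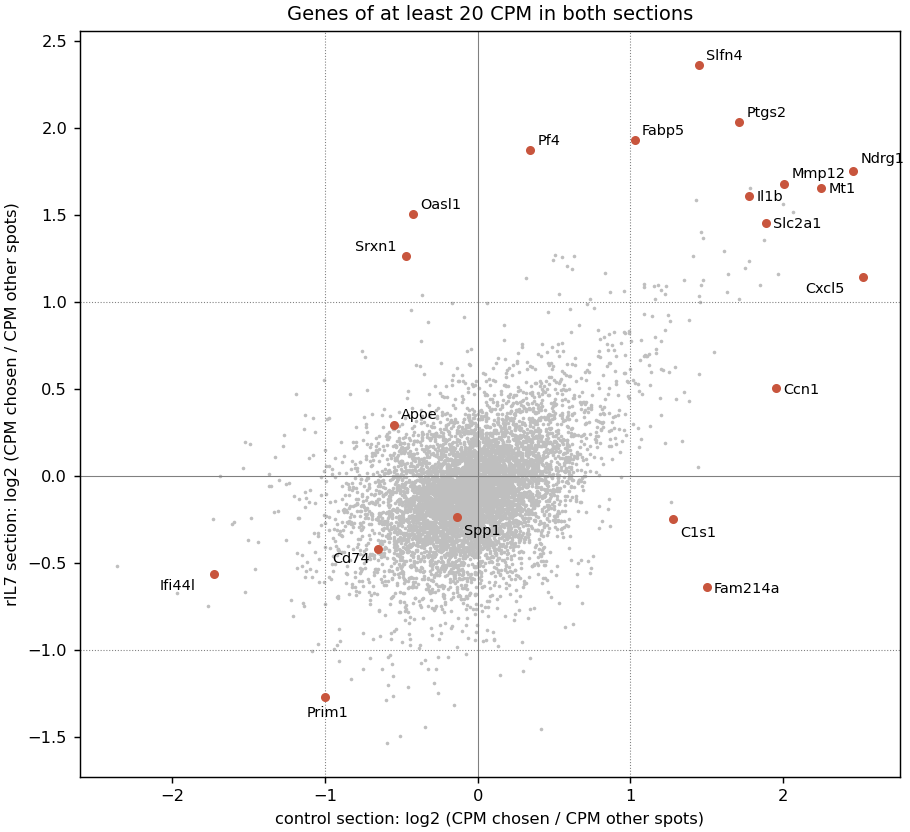
Log2 ratio of neutrophil-rich to other spots in the rIL7 section (vertical axis) against the control section (horizontal axis) for genes of at least 20 CPM in both, with named genes in red and dotted lines at 2-fold. Mt1 and Ndrg1 lie to the upper right, and Pf4, Oasl1 and Srxn1 lie further along the rIL7 axis than along the control axis.

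Besides members of the lists, the shared higher genes included signalling, stress and metabolic genes. Ier3, an immediate early gene, stood at 4.18 (3.65 to 4.77) in control and 2.86 (2.58 to 3.17) in rIL7 spots, and Nfkbia, the inhibitor and target of NF-κB, at 3.36 (2.98 to 3.78) and 2.29 (2.07 to 2.52). Srgn, which encodes the proteoglycan of secretory granules in blood cells, stood at 2.75 (2.30 to 3.28) and 2.64 (2.39 to 2.92), and the myeloid chemokine Ccl6 at 2.70 (2.11 to 3.40) and 3.0 (2.75 to 3.27). The lactate transporter Slc16a3 stood at 2.78 (2.02 to 3.74) and 2.58 (2.09 to 3.16), P4ha2, a collagen prolyl hydroxylase, at 3.66 (2.78 to 4.74) and 2.56 (2.10 to 3.09), and the stress genes Gadd45b and Ppp1r15a between 2.36 and 3.43 in both tumors.

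Genes with the largest and smallest ratios of a section differed more between the tumors. Among the 10 largest control ratios were Ero1l, an oxidase of protein folding that hypoxia induces (4.38, 3.91 to 4.90, and 3.36, 3.09 to 3.65 in the rIL7 section), and Ccn1, a matrix-associated signalling protein (3.87, 3.36 to 4.45, but 1.42, 1.25 to 1.61 in the rIL7 section). Among the 10 largest rIL7 ratios were Hmox1, the haem-degrading enzyme (11.2, 10.4 to 12.2, against 6.08, 4.66 to 7.84 in the control section), Pf4, a platelet chemokine that some macrophages also transcribe (3.65, 3.43 to 3.89, against 1.27, 1.06 to 1.51, beside a platelet list at 0.780, 0.485 to 1.19, on 22 UMIs in the rIL7 section), and the fatty acid-binding protein gene Fabp5 (3.81, 3.49 to 4.15, against 2.04, 1.69 to 2.44). Arg1, the arginine-degrading enzyme of some myeloid cells, stood at 3.49 (3.10 to 3.91) in the rIL7 and 1.42 (0.745 to 2.47) in the control section. Hmox1 and Arg1 lay below the other rIL7 spots, at -0.63 and -0.78 on the log2 scale, when Csf3r, Retnlg and Cxcr2 alone chose the spots. Gzmb, a granule protease of killer lymphocytes, was among the 5 smallest control ratios (0.301, 0.0972 to 0.707) and stood at 0.844 (0.604 to 1.15) in the rIL7 section. Ifi44l, an interferon-response gene, was another (0.302, 0.144 to 0.557, and 0.678, 0.50 to 0.898 in the rIL7 section). Among the 5 smallest rIL7 ratios were Dnase1l3, a secreted nuclease of macrophages and dendritic cells (0.355, 0.216 to 0.552, and 0.702, 0.372 to 1.21 in the control section), and the growth factor gene Bmp4 (0.365, 0.174 to 0.677, and 1.33, 0.847 to 2.01).

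The genes whose ratios differed most between the sections were mostly near the minimum of 20 CPM, with Ccn1 (87.1 and 148.1 CPM) and C1s1 (64.1 and 198.8 CPM) as the more abundant ones. Oasl1, an interferon-response gene, stood at 0.747 (0.415 to 1.24) in the control tumor and 2.84 (2.24 to 3.56) in the rIL7 tumor, and Srxn1, which repairs oxidised peroxiredoxins, at 0.722 (0.450 to 1.1) and 2.40 (1.99 to 2.88). In the other direction, the complement protease gene C1s1 stood at 2.42 (1.98 to 2.94) and 0.842 (0.732 to 0.964), and Fam214a at 2.83 (2.04 to 3.84) and 0.642 (0.378 to 1.03). None of these differences was tested.

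**Figure D4:**
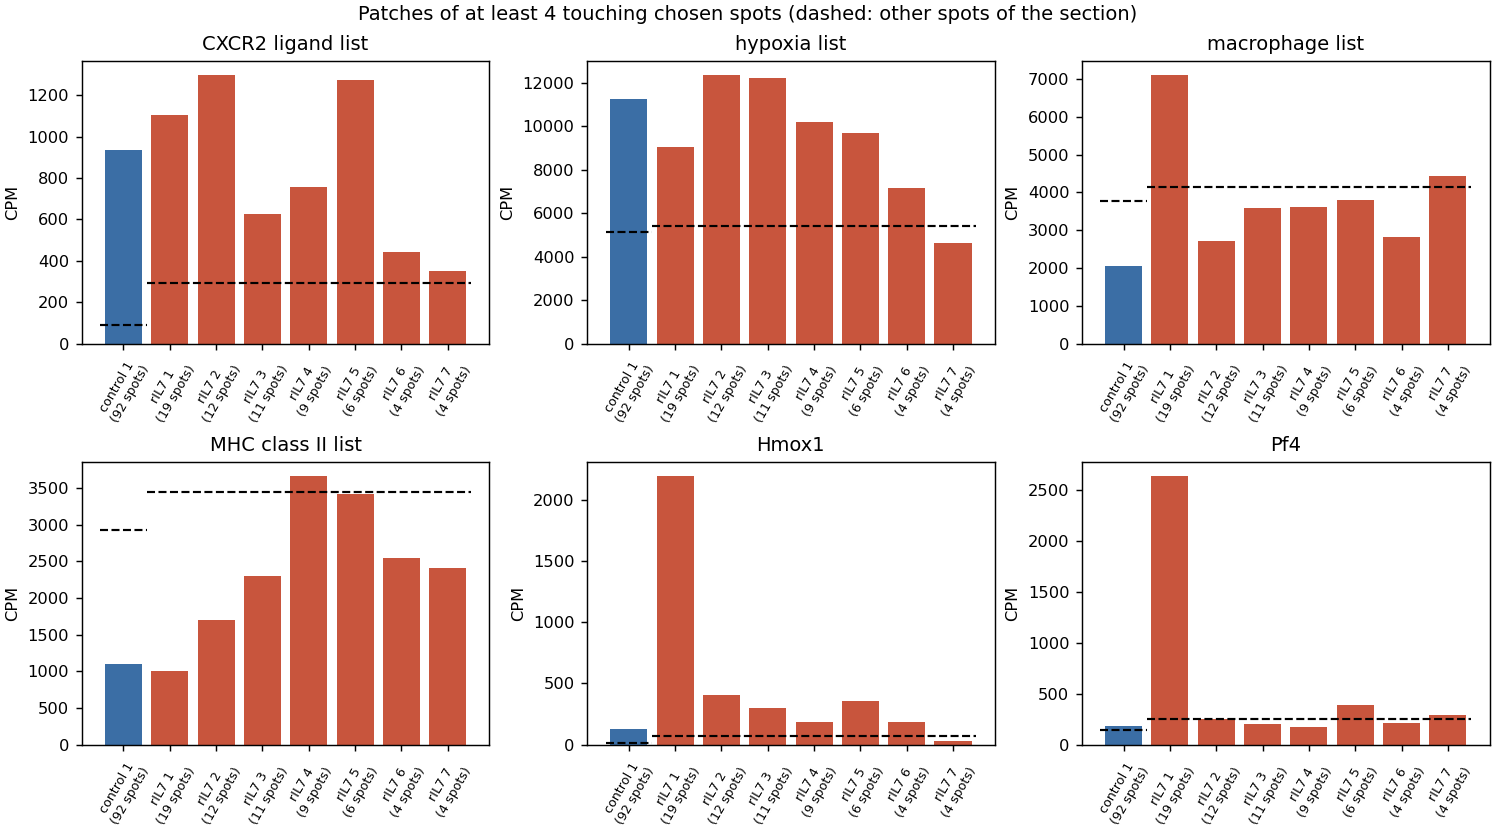
CPM of 4 gene lists, Hmox1 and Pf4 (bars) in each patch of at least 4 touching neutrophil-rich spots, blue for the control and red for the rIL7 section, with dashed lines at the level of the other spots of the section. The largest rIL7 patch stands apart in Hmox1 and Pf4, at 2200 and 2645 CPM.

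The patches differed among themselves, as the plot of the patches shows, and in the control section the values above rested on 1 patch. The 92 spots of that patch had a mature neutrophil ratio of 4.10 (3.82 to 4.40), a CXCR2 ligand ratio of 10.4 (9.39 to 11.4), a hypoxia ratio of 2.20 (2.14 to 2.26) and an MHC class II ratio of 0.377 (0.347 to 0.408). The 19 control spots outside it stood at 1.40 (1.14 to 1.70), 1.41 (0.908 to 2.08), 0.995 (0.934 to 1.06) and 1.34 (1.24 to 1.43). Almost all molecules of several genes described above came from the patch, with 83 of 84 Cxcl2 UMIs, 195 of 198 Hcar2 UMIs, 40 of 40 G0s2 UMIs and 90 of 91 Hdc UMIs. The macrophage list was at 0.543 (0.512 to 0.576) in the patch and 1.17 (1.09 to 1.25) outside. Outside the patch, heat-shock genes, Ptgs2, Mt1, Slfn4, Hdc and Cd274 stood at -0.35, -1.39, -0.15, -0.12, -0.49 and -0.23 on the log2 scale. The counting intervals of all of these included a ratio of 1, and Ptgs2, Hdc and Cd274 rested on 3, 1 and 2 UMIs. Fibroblast genes were above the other spots there, at 0.22. Only S100a8 (7.05), S100a9 (6.93) and Csf3r (3.80), which the rule used, together with Clec4d (3.62, 1.64 to 6.97), stayed above 2-fold with an interval above 1 among the single genes examined outside the patch, so that the name neutrophil-rich has little support from other genes in those 19 spots.

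In the rIL7 section the largest patch was of another kind than the rest. Its 19 spots had Hmox1 at 2200 CPM, a ratio of 32.2 (29.6 to 35.0), where the 79 spots outside it had 208.9 CPM, a ratio of 3.06 (2.62 to 3.55). Pf4 stood at 10.4 (9.68 to 11.1) and 1.04 (0.909 to 1.18), Arg1 at 8.05 (6.97 to 9.25) and 1.71 (1.41 to 2.05), and Hspa1a at 23.4 (19.2 to 28.3) and 3.96 (2.99 to 5.17). Macrophage genes followed, at 1.72 (1.65 to 1.78) in the patch and 0.906 (0.876 to 0.937) outside, and monocyte genes at 1.61 (1.39 to 1.86) and 0.976 (0.868 to 1.09). Hcar2 went the other way, at 2.57 (1.22 to 4.80) in the patch and 15.5 (12.6 to 19.0) outside.

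Other features were shared by the rIL7 patch and the rest. The mature neutrophil list stood at 2.99 (2.73 to 3.26) and 2.53 (2.38 to 2.69), CXCR2 ligands at 3.75 (3.39 to 4.15) and 2.58 (2.38 to 2.78), Il1b at 3.16 (2.70 to 3.68) and 3.01 (2.72 to 3.33), and hypoxia genes at 1.67 (1.61 to 1.73) and 1.71 (1.67 to 1.75). MHC class II was below 1 in both, at 0.293 (0.264 to 0.325) and 0.849 (0.817 to 0.882), and T cell genes at 0.314 (0.223 to 0.430) and 0.710 (0.619 to 0.810). The next 4 patches, of 6 to 12 spots, had mature neutrophil sums between 1307 and 1869 CPM and Hmox1 between 183.4 and 403.2 CPM. A patch of 9 spots had the highest sum of the rule genes among the rIL7 patches of at least 4 spots, at 1983 CPM. A patch of 11 spots lay 2 to 3 steps from the outline and had hypoxia genes at 12237 CPM, close to the 12383 CPM of a patch of 12 spots that lay 10 to 15 steps inside.

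**Figure D5:**
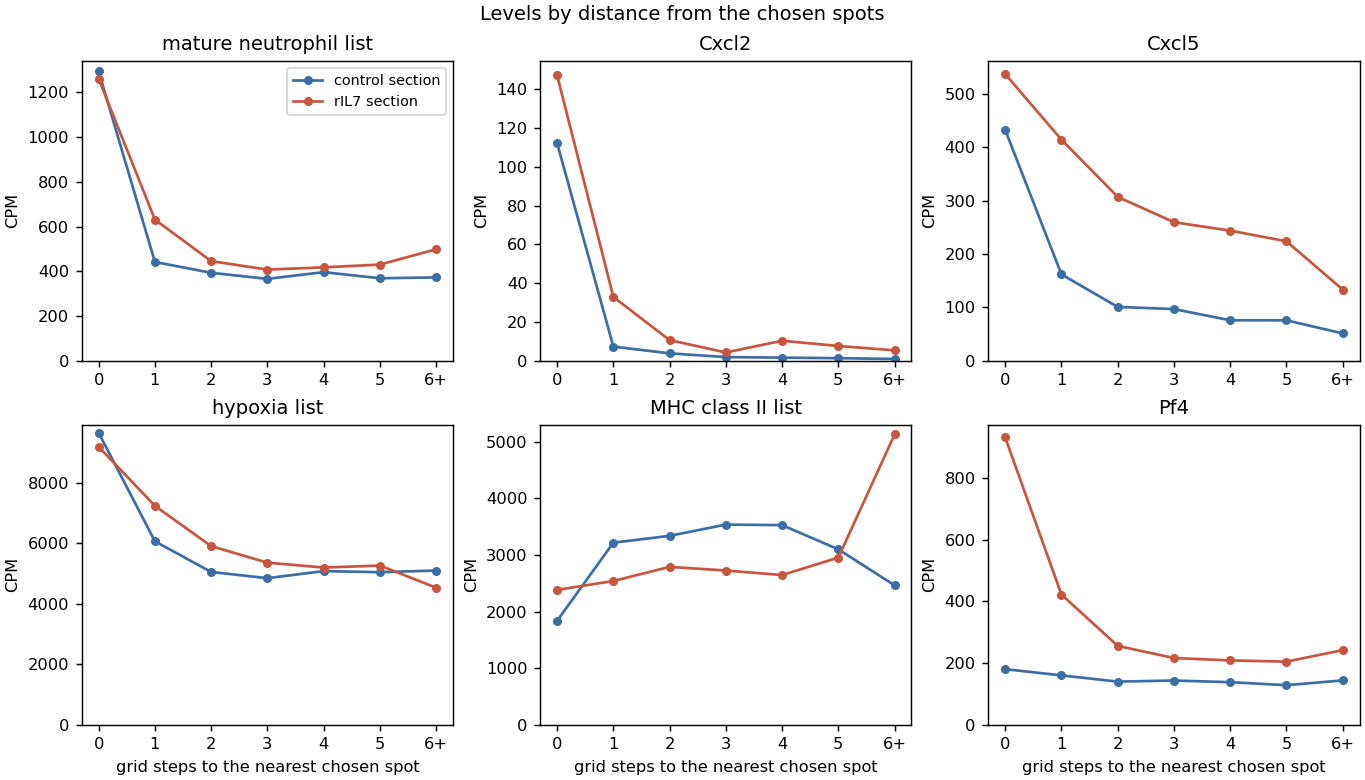
CPM of 3 gene lists, Cxcl2, Cxcl5 and Pf4 (vertical axes from 0) against the distance from the nearest neutrophil-rich spot in steps of the spot grid, with 0 for the neutrophil-rich spots themselves and lines for the control and rIL7 sections. Cxcl2 falls from 112.2 to 7.30 CPM within 1 step in the control section and from 147.2 to 32.9 CPM in the rIL7 section.

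Levels of several genes were higher at 1 step from the neutrophil-rich spots than farther away, as the plot of levels by distance shows. Mature neutrophil genes went from 1294 CPM in the spots to 441.8 CPM at 1 step and 393.4 CPM at 2 steps in the control section, and from 1261 to 631.2 and 445.6 CPM in the rIL7 section. Farther away they did not keep falling, since the control values lay between 366.2 and 396.3 CPM and the rIL7 values went from 407.7 CPM at 3 steps to 498.6 CPM at 6 or more. Cxcl2 stood at 7.30 CPM at 1 step and 0.926 CPM at 6 or more steps in the control section, and at 32.9 and 5.38 CPM in the rIL7 section. Cxcl5 reached further, at 161.9, 100.9 and 51.2 CPM at 1, 2 and 6 or more steps in the control and 414.4, 307.2 and 133.4 CPM in the rIL7 section. Hypoxia genes stood at 6066 CPM at 1 step and 5051 CPM at 2 steps in the control section, and at 7239 and 5906 CPM in the rIL7 section. MHC class II genes were lowest in the neutrophil-rich spots, at 1837 CPM against 3217 CPM at 1 step in the control section, and at 2383 CPM against 2540 CPM at 1 step and 5131 CPM at 6 or more steps in the rIL7 section.

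The spots also ranked high by measures the rule did not use. Of the control neutrophil-rich spots, 64.9% (55.2 to 73.7) were in the top 5% of their section by CXCR2 ligands, 55.9% (46.1 to 65.3) by hypoxia genes, 47.7% (38.2 to 57.4) by mature neutrophil genes and 64.0% (54.3 to 72.9) by Mt1. For the rIL7 spots the shares were 35.7% (26.3 to 46.0), 36.7% (27.2 to 47.1), 49.0% (38.7 to 59.3) and 42.9%. By construction each top set held 5.00% and 5.03% of all spots. The intervals of these shares treat spots as independent, which touching spots are not, so they can be too narrow. In the control section 31.5% of the spots were also among the shallowest 5%, against 7.14% in the rIL7 section.

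Set side by side, the neutrophil-rich spots of the sections gave ratios that depended on how the spots were chosen. The rIL7 over control ratio in neutrophil-rich spots was 0.974 (0.899 to 1.06) for mature neutrophil genes and 0.952 (0.925 to 0.981) for hypoxia genes. On the log2 scale the mature neutrophil ratio was -0.04 as given, -0.66 with a common cut of 686.3 CPM for both sections, -0.61 in the top 2.5% and 0.34 in the top 10% of spots. It was -0.62 with equal weight of spots, 0.62 after thinning and 1.17 without the largest patch of each section, so that it had no stable direction. Hypoxia genes stood at 9249 CPM in the rIL7 and 5103 CPM in the control spots without these patches. The rIL7 over control ratio of CXCR2 ligands was 1.18 (1.07 to 1.31) in the neutrophil-rich spots, but 3.26 (3.10 to 3.42) in the other spots, where the rIL7 section held 294.2 and the control section 90.4 CPM. The former ratio turned too, from 0.24 on the log2 scale as given to -0.38 with the common cut and 2.58 without the largest patches. Cxcl1 showed the same contrast, at 0.811 (0.634 to 1.04) in the neutrophil-rich and 3.40 in the other spots. Hcar2 and Hdc were lower in the rIL7 neutrophil-rich spots, at 0.478 (0.387 to 0.591) and 0.530 (0.389 to 0.721), whereas the other spots stood at 2.23 and 1.47.

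The macrophage list stood at 1.77 (1.68 to 1.86) in the neutrophil-rich and 1.1 in the other spots, and the interferon list at 1.96 (1.77 to 2.18) and 1.2. Hmox1 stood at 7.87 (6.20 to 10.1) and 4.26, Pf4 at 5.17 (4.32 to 6.22) and 1.79, and Arg1 at 15.3 (8.82 to 29.0) and 6.21, with 13 Arg1 UMIs in the control neutrophil-rich spots. In the 79 rIL7 spots outside the largest patch Hmox1 stood at 208.9 CPM, Pf4 at 264.3 and Arg1 at 130, against 97.5, 180.3 and 17.4 CPM in all control neutrophil-rich spots. Without the largest patch of each section the macrophage direction turned, with 3760 CPM in the rIL7 and 4385 CPM in the control spots, and the interferon list stood at 1130 and 732.6 CPM. Hmox1 then rested on 4 control UMIs and Arg1 on 0. The ratio of T cell genes was 1.75 (1.37 to 2.25) in the neutrophil-rich and 2.09 in the other spots, and cytotoxic genes at 2.72 (2.05 to 3.67) and 2.19. Since each section is 1 tumor from 1 mouse, treatment, mouse and section cannot be told apart in these ratios.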

How the data were processed

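RNA was captured from 2 tumor sections on Visium slides with 3′ v1 chemistry. The authors mapped and counted the reads with Space Ranger 1.1.0 on mm10 and deposited UMI counts for 32285 genes in the 2221 (control) and 1951 (rIL7) spots over tissue. Spots with more than 200 genes were kept, which removed 2 and 1. CPM was computed from these counts by pooling the UMIs of a group of spots. Exact binomial (Clopper-Pearson) 95% intervals were computed with scipy 1.17.1 and numpy 2.4.6 (Python 3.11.15), and they cover counting error only. No test and no doublet caller was run, since spots are not replicates of a treatment. The members and the 33 gene lists were chosen with earlier results of these data known. Genes counted at least 2-fold higher or lower had at least 20 CPM over the section. A ratio with fewer than 3 UMIs in a group was not read as a fold. Touching spots were joined through their 6 grid neighbours into patches, and steps were counted on the same grid.

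Named genes were the rule genes, members of reported lists, the 10 largest and 5 smallest ratios per section, the genes past 2-fold in both sections and the 5 per side that differed most between sections. The alternatives were other shares of spots, other rule genes or weights, thinning to 5000 UMIs, a common cut, other spot filters, interior spots, more distant comparison spots, equal spot weights, other totals, other gene minima and folds, TMM scaling (edgeR 4.0.16) and median-of-ratios scaling (DESeq2 1.42.0) in R 4.3.3. The script was tested on simulated data. Gene positions came from the RefSeq annotation of GRCm38.p6, in which 363 of 364 names matched. Mx1 was not used, and Aldoa was summed over its features. The histology images were not used here.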

Additional observations from a re-analysis of the deposited data

Results flagged for a closer look

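The sections differed in direction for 3 gene lists, each with 1 section per group, and the difference was not tested. Macrophage genes were lower in neutrophil-rich than in other spots of the control section (ratio 0.707, 0.675 to 0.739) and higher in the rIL7 section (1.13, 1.1 to 1.16). Without the largest rIL7 patch of 19 spots the rIL7 ratio was 0.906 (0.876 to 0.937), and in the 19 control spots outside the largest control patch it was 1.17 (1.09 to 1.25). Monocyte genes stood at 0.725 (0.630 to 0.831) and 1.15 (1.05 to 1.26), and the rIL7 value outside the largest patch was 0.976 (0.868 to 1.09). Adipocyte genes stood at 1.31 (1.06 to 1.59) and 0.644 (0.533 to 0.771), with Fabp4, which endothelial cells and macrophages also express, making up 99.2% and 92.2% of the list.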

How the results depend on the processing

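No paired analysis was possible because each group had 1 section. Values here are log2 ratios of neutrophil-rich over other spots, control then rIL7 where 2 are given; the reported ones are 1.76 and 1.41 (late neutrophil), 1.58 and 1.36 (granule), 3.0 and 1.54 (CXCR2 ligand), and, for rIL7 over control, -0.04 and 0.24. Reported gene counts are 92 and 73 higher and 94 and 38 lower, and edge shares 2.70% and 12.6%. A value is listed with changed sign, or counted as reversed, only where its reported counting interval left out a ratio of 1. For single genes the reported change also had to reach 2-fold. Further values with a reported interval that included 1 crossed it too and are not listed, such as the control dendritic and endothelial lists without the largest patch. With a minimum of 5 CPM, the gene counts were 217 and 137 higher, 435 and 280 lower. With no minimum level, the gene counts were 380 and 323 higher, 617 and 631 lower. At 1.5-fold, the gene counts were 361 and 207 higher, 523 and 363 lower. In the top 2.5% of spots, the log2 ratios were late neutrophil 2.70 and 1.76, granule 2.44 (control), CXCR2 ligand 3.67 and 1.79, those of rIL7 over control were late neutrophil -0.61 and CXCR2 ligand -0.24, the gene counts were 260 (control) higher, 651 and 198 lower, the edge shares were 0% (control), and the values with changed sign were, in the control section, tumor neutrophil -0.042, and, in the rIL7 section, B and plasma cell -2.13. In the top 10% of spots, the log2 ratios were late neutrophil 1.06 and 1.12, CXCR2 ligand 2.21 and 1.28, those of rIL7 over control were late neutrophil 0.34 and CXCR2 ligand 0.79, and the gene counts were 23 and 36 higher, 2 and 3 lower. Choosing by Csf3r, Retnlg and Cxcr2 alone, the log2 ratios were late neutrophil 1.21 and 0.69, granule 0.38 (rIL7), CXCR2 ligand 1.74 and 0.081, those of rIL7 over control were late neutrophil -0.16 and CXCR2 ligand -0.0029, the gene counts were 20 and 6 higher, 22 and 8 lower, the edge shares were 10.8% (control) and 25.0% (rIL7), and the values with changed sign were, in the control section, NADPH oxidase 0.047, other granulocyte 0.00020, keratinocyte 0.50, interferon 0.050, muscle 0.090, and, in the rIL7 section, tumor neutrophil -0.20, hypoxia -0.059, MHC class II 0.73, T cell 0.50, cytotoxic 0.46, other granulocyte 0.75, fibroblast 0.025, red blood cell -1.54, proliferation 0.095, protease -0.14, adipocyte 0.38, Cxcl5 -0.14, Hmox1 -0.63, Arg1 -0.78, Mmp12 -0.17, Cxcl9 0.73. With each rule gene divided by its section mean, the log2 ratios were late neutrophil 1.28 and 0.87, granule 0.69 (rIL7), CXCR2 ligand 1.92 and 0.64, the gene counts were 26 and 11 higher, 15 and 4 lower, and the values with changed sign were, in the control section, NADPH oxidase 0.039, MHC class II 0.0072, keratinocyte 0.42, and, in the rIL7 section, macrophage -0.092, cytotoxic 0.16, other granulocyte 0.054. After thinning to 5000 UMIs, the log2 ratios were late neutrophil 0.99 and 1.28, CXCR2 ligand 2.24 (control), those of rIL7 over control were late neutrophil 0.62 and CXCR2 ligand 0.96, the gene counts were 27 (control) higher, 24 (control) lower, and the values with changed sign were, in the control section, other S100 0.013, and, in the rIL7 section, B and plasma cell -2.13. With a common cut of 686.3 CPM, the log2 ratios were late neutrophil 2.23 and 1.28, CXCR2 ligand 3.45 and 1.42, those of rIL7 over control were late neutrophil -0.66 and CXCR2 ligand -0.38, the gene counts were 178 (control) higher, 313 and 15 lower, the edge shares were 0% (control), and the values with changed sign were, in the control section, tumor neutrophil -0.031. In interior spots, the log2 ratios were late neutrophil 1.49 (rIL7), and the values with changed sign were, in the rIL7 section, B and plasma cell -0.59. Against spots at least 3 steps away, the log2 ratios were CXCR2 ligand 3.24 and 1.86. With equal weight of spots, the log2 ratios were late neutrophil 2.34 (control), CXCR2 ligand 3.43 (control), those of rIL7 over control were late neutrophil -0.62 and CXCR2 ligand -0.35, and the gene counts were 144 (control) higher, 213 (control) lower. Under TMM, the log2 ratios were late neutrophil 1.5 (rIL7), and the gene counts were 25 (rIL7) lower. Under median-of-ratios scaling, the log2 ratios were late neutrophil 1.5 (rIL7), CXCR2 ligand 1.63 (rIL7), and the gene counts were 25 (rIL7) lower. Without the largest patch, the log2 ratios were late neutrophil 0.49 (control), granule -1.30 and 0.82, CXCR2 ligand 0.49 and 1.36, those of rIL7 over control were late neutrophil 1.17 and CXCR2 ligand 2.58, the gene counts were 422 (control) lower, the edge shares were 15.8% (control), and the values with changed sign were, in the control section, NADPH oxidase 0.068, hypoxia -0.0070, macrophage 0.22, MHC class II 0.42, other granulocyte 0.70, fibroblast 0.22, heat-shock -0.35, Ptgs2 -1.39, Mt1 -0.15, Slfn4 -0.12, Hdc -0.49, Cd274 -0.23, and, in the rIL7 section, macrophage -0.14, monocyte -0.035. The control granule value of -1.30 rested on 1 UMI (ratio 0.406, 0.010 to 2.28) and is not read as a fold, although it is among the 6 values counted as reversed below. At matched depth, the log2 ratios were late neutrophil 1.94 (control), CXCR2 ligand 3.16 (control), those of rIL7 over control were late neutrophil -0.18 and CXCR2 ligand -0.012, the gene counts were 208 and 63 lower, and the edge shares were 0% (control). No filter on spots, a filter at 1000 genes and totals without rule, mitochondrial, ribosomal protein and haemoglobin genes left all of these values within their counting interval or, for counts, within 1.5 times. Over all settings 154 of these values stayed within their counting interval (counts within 1.5 times), 96 moved beyond it and 6 reversed; of other list values 647 stayed, 242 moved and 37 reversed, and of single genes 738 stayed, 365 moved and 10 reversed. The largest-patch and matched-depth settings were chosen after seeing the data, as were all settings for rIL7 over control. The causes of these changes were not tested. Depth limits the sparse genes most: 6 Cxcr2 and 10 Retnlg UMIs stood behind the control values.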

Other observations

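Some further lists were described by few molecules. Leukocyte adhesion molecules of vessels stood at 1.08 (0.922 to 1.26) in the control and 1.14 (1.04 to 1.26) in the rIL7 section, with Vcam1 making up 84.7% and 83.4% of the sum and 1 of 4 members higher in each. Platelet genes stood at 1.56 (0.977 to 2.37) and 0.780 (0.485 to 1.19), nearly all from Itga2b. Muscle genes stood at 0.603 (0.409 to 0.860) and 0.797 (0.339 to 1.60), and 11 UMIs of red blood cell genes in the rIL7 neutrophil-rich spots gave a ratio of 3.49 (1.65 to 6.71), of which 7 UMIs lay in the largest patch.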
